A study of Mus musculus with 3 samples.

Results

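The genes described here are 9 components and regulators of the complement system, picked by symbol from the 32285 genes counted in each section: *C1ra*, *C1s1*, *C4b*, *C2*, *C3*, *Cfb*, *Serping1*, *C3ar1* and *C5ar1*. All 9 had UMIs on every day, and the lowest sum under tissue was 50 UMIs, for *C3ar1* and for *C5ar1* on Day 14. The level of all 9 was lower on Day 14 than on Day 3, by factors from 1.85 (*C2*) to 13.8 (*C5ar1*), and they differed in when. *C3*, the central component, *C4b*, *Cfb* and both anaphylatoxin receptors were more than 2-fold lower already on Day 7. Of these, *C3ar1* was 2.10-fold lower, with an interval of the log2 ratio (-1.37 to -0.77) on both sides of 2-fold. By contrast, *C1s1* was 1.31-fold higher on Day 7 than on Day 3 and *C2* did not differ beyond counting error.

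Complement is a cascade of serum and tissue proteins that marks surfaces for removal and calls in leukocytes. In the classical pathway the proteases C1r and C1s, held by C1q, cleave C4 and C2, and the fragments form a convertase that cleaves C3. The C1 inhibitor restrains C1r and C1s of this classical pathway. In the alternative pathway factor B takes the place of C2. The released peptides C3a and C5a act on myeloid cells through their own receptors. The liver supplies most of the circulating proteins, while fibroblasts, macrophages and epithelium make several of them locally, and in a skin wound they meet an influx of neutrophils and then macrophages.

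Visium captures polyadenylated RNA of a tissue section on a slide of barcoded spots, each 50 µm across, and counts molecules by unique molecular identifier (UMI). The sections came from full-thickness skin wounds of C57BL/6J mice, given by the study's methods as males of 7 to 12 weeks wounded with a 4-mm punch, on Day 3, Day 7 and Day 14 after injury. The labels name no altered allele and no agent for any group, and no separate sample of intact skin was analysed here. The paper's figures mark intact skin and muscle beside the wound site on these sections. Levels under tissue may therefore include more than wound tissue. Each day is 1 section of 1 wound, so no test between days was possible, and every interval below is a 95% interval for counting error that holds no variation between animals, wounds or sections. Day cannot be told apart from slide or from where the section was cut.

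The slides share all 4992 barcodes, because these are positions of the spots. Between 549 and 697 spots lay under tissue, and the Day 3, Day 7 and Day 14 sections held 1772259, 4442962 and 4611723 UMIs there. A given level therefore has its widest interval on Day 3. Outside the marked tissue the slides still held between 49.0% and 59.2% of all UMIs. Levels are given as CPM, the UMIs of a gene per 1000000 UMIs of its pool of spots, and are compared between days or regions for 1 gene but not between genes. Marker lists of 10 genes each describe the mixture: the fibroblast list summed to 28195, 36219 and 18838 CPM on Day 3, Day 7 and Day 14, the macrophage list to 3056, 1751 and 695, the neutrophil list to 2274, 204 and 144, and the epidermis list to 9237, 5018 and 12189. The 10 genes of the fibroblast list did not move together. Between Day 3 and Day 7, 3 of them were at least 2-fold higher and 2 at least 2-fold lower. *Dcn*, 1 of the 10, measured 1125, 802 and 567 CPM on Day 3, Day 7 and Day 14. Among the defining markers only *Retnlg* and *Trem1* on Day 7 and *Trem1* on Day 14, all of the neutrophil list, were at 0. In such mixtures fewer cells of a type and less RNA per cell cannot be told apart, and the part of these shifts in the results below was not tested.

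In the GRCm38 annotation *C4b* (chr17:34728380-34743882), *Cfb* (chr17:34856374-34862518), *C2* (chr17:34862604-34898265) and *C3* (chr17:57203970-57228136) lie on chromosome 17, all on the minus strand, with 85 bases between *Cfb* and *C2*. *C3ar1* (chr6:122847138-122856161, minus strand), *C1ra* (chr6:124512405-124523443, plus strand) and *C1s1* (chr6:124530345-124542359, minus strand) lie on chromosome 6, where the last 2 point at each other across 6901 bases. *Serping1* is at chr2:84765387-84775444 and *C5ar1* at chr7:16246743-16259540, both on the minus strand. All are protein-coding genes. *C4b*, *C1ra* and *C1s1* have close copies that could share reads: *C4a* had at most 12 UMIs under tissue on any day and *C1rb* and *C1s2* at most 1, so a misassignment between the copies remains possible and their counts are uncertain to that extent.

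The start regions of 3 members with different roles and patterns are shown. *C3*, the central component, was lower on each later day, and the protease gene *C1s1* was highest on Day 7. *C3ar1*, lower on each later day like *C3*, is 1 of the 2 receptor genes. Of the 3 spot classes described below, both receptors were highest on Day 3 in spots rich in *Lyz2*, a gene of macrophages and neutrophils. Each line gives the 150 bases before the start of the RefSeq gene on GRCm38.p6, 5′ to 3′ on the gene's strand (*C3* chr17:57228137-57228286, *C1s1* chr6:124542360-124542509, *C3ar1* chr6:122856158-122856307, all minus). Capitals mark matches to a C/EBP-type motif (TTNCNNAA on either strand) or to an AP-1 motif (TGANTCA).
C3: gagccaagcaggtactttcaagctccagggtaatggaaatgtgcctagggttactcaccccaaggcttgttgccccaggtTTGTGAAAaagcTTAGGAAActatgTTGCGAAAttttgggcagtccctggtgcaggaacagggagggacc
C1s1: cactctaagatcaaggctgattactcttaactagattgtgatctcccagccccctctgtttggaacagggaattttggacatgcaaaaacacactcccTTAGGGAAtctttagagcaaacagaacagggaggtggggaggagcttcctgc
C3ar1: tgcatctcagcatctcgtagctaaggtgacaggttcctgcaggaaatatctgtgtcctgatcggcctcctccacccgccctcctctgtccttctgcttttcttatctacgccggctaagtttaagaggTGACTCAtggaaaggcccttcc
*C3* holds 3 C/EBP-type matches within 70 bases of its start, and the first base of the nearest is 45 bases before it. *C1s1* holds 1 in this window and *C3ar1* none, but *C3ar1* holds an AP-1 match that begins 22 bases before the start. The C/EBP-type letters are common, since 36.8% of the 32851 promoters of the table hold them within 250 bases before the start, against 6.75% for the AP-1 letters. Promoters of 5 of the 9 members were matched, those of *C3*, *C1ra*, *C1s1*, *C3ar1* and *C5ar1*, and none of the 5 holds a GAS motif (TTCNNNGAA, in 7.02% of promoters) or a κB motif (in 7.25%) in that window. Such matches are letters, not measured binding.

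Between Day 3 and Day 7, 5 of the 9 members were at least 2-fold lower (*C3*, *C4b*, *Cfb*, *C3ar1* and *C5ar1*) and 0 at least 2-fold higher. Among all 10541 genes with at least 50 UMIs over both sections, 6.49% were at least 2-fold lower and 8.04% at least 2-fold higher. The median log2 ratio was -1.07 over the members and 0.04 over all those genes. Between Day 3 and Day 14, 7 of the 9 were at least 2-fold lower, all but *C1s1* and *C2*, against 6.83% of genes, and 0 were higher, against 14.4%. The medians were -1.73 over the members and 0.18 over all genes. Between Day 7 and Day 14, 3 of the 9 were at least 2-fold lower (*C1s1*, *C3ar1* and *C5ar1*), against 7.34%, and 0 higher, against 10.9%, with medians of -0.74 and 0.13.

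**Figure D1:**
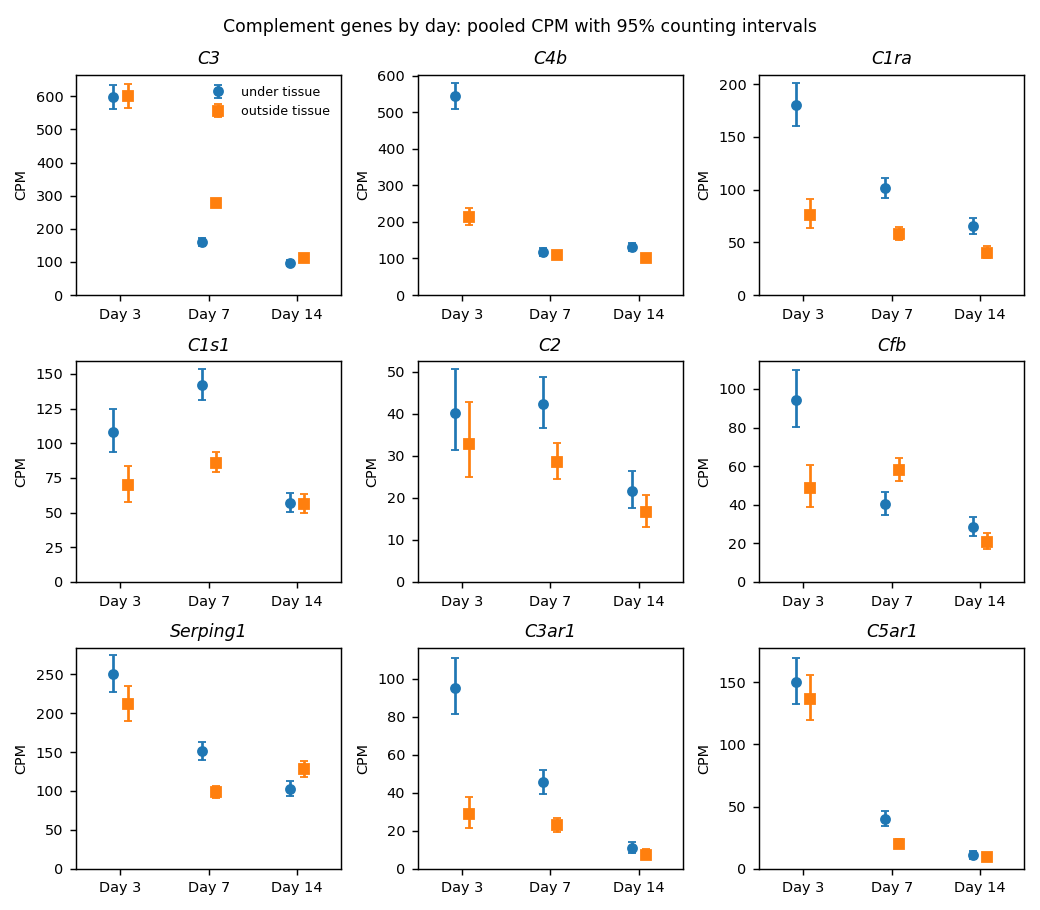
Level of each of the 9 complement genes (CPM, vertical axes from 0) on Day 3, Day 7 and Day 14, in all spots under tissue (circles) and outside it (squares), 1 section per day, with 95% counting intervals. *C1s1* is highest on Day 7, *C3* outside the tissue exceeds *C3* under it on Day 7, and both receptors are at 10.8 CPM on Day 14.

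The proteases at the head of the classical pathway followed different courses. *C1ra* (C1r) measured 180, 101 and 65.5 CPM on Day 3, Day 7 and Day 14, from 319, 450 and 302 UMIs, so that each day lay below the one before it. *C1s1* (C1s), its partner in the C1 complex, measured 108, 142 and 57.0 CPM, from 192, 632 and 263 UMIs. Set against Day 3, the Day 7 level of *C1s1* had a log2 ratio of 0.39 (0.16 to 0.63) and that of *C1ra* one of -0.83 (-1.04 to -0.62), so the intervals of this pair do not meet. Per 100 UMIs of *Dcn*, a proteoglycan gene of fibroblasts, *C1s1* had 9.63, 17.7 and 10.1 UMIs and *C1ra* had 16.0, 12.6 and 11.5, so *C1s1* was highest on Day 7 on that scale too. Per 100 UMIs of *Lyz2*, the lysozyme gene of macrophages and neutrophils, it was not: *C1s1* had 7.28, 13.2 and 14.9 UMIs. From Day 7 to Day 14 *C1s1* was 2.49-fold lower.

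The substrates of C1s also differed. *C4b* (C4) measured 543, 118 and 132 CPM and was 4.61-fold lower on Day 7 than on Day 3. Its Day 14 over Day 7 log2 ratio of 0.16 had an interval that holds 0 (-0.01 to 0.33). *C2* measured 40.1, 42.3 and 21.7 CPM, from only 71, 188 and 100 UMIs. Day 7 and Day 3 could not be told apart for *C2* at this depth (log2 ratio 0.08, -0.32 to 0.49), and Day 14 was 1.95-fold below Day 7.

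*C3*, on which the pathways converge, measured 598, 160 and 95.4 CPM from 1059, 710 and 440 UMIs, and was 6.26-fold lower on Day 14 than on Day 3. Per 100 *Dcn* UMIs it had 53.1, 19.9 and 16.8 UMIs. *Cfb*, the alternative pathway protease that pairs with C3b, measured 94.2, 40.3 and 28.4 CPM, with log2 ratios to Day 3 of -1.23 (-1.54 to -0.91) and -1.73 (-2.07 to -1.39). *Cfb* per 100 *Dcn* UMIs was 8.38, 5.02 and 5.01. Per 100 *Lyz2* UMIs the order of the days differed: *C3* had 40.1, 14.8 and 24.96 UMIs and *Cfb* had 6.33, 3.74 and 7.43. The inhibitor *Serping1* (C1 inhibitor) measured 250, 151 and 103 CPM, and Day 7 was 1.66-fold below Day 3, a smaller difference than for *C3*, *C4b* and *Cfb*. Per 100 *Dcn* UMIs *Serping1* had 22.2, 18.8 and 18.1 UMIs, the narrowest relative range of the 9 on that scale, and per 100 *Lyz2* UMIs it had 16.8, 14.0 and 26.8, highest on Day 14.

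Between Day 3 and Day 14 the receptors had the largest differences of the 9, while between Day 3 and Day 7 that of *C4b* was the largest. *C5ar1* (the C5a receptor of neutrophils and macrophages) measured 150, 40.1 and 10.8 CPM, from 266, 178 and 50 UMIs, and was 13.8-fold lower on Day 14 than on Day 3. *C3ar1* (the C3a receptor) measured 95.4, 45.5 and 10.8 CPM, from 169, 202 and 50 UMIs, and was 8.80-fold lower. Per 100 UMIs of *Lyz2*, *C5ar1* had 10.1, 3.72 and 2.84 UMIs and *C3ar1* had 6.40, 4.22 and 2.84. Both were thus lower than their Day 3 level also relative to *Lyz2*, which itself measured 1489, 1076 and 382 CPM. The neutrophil list was 2274 CPM on Day 3 and 204 on Day 7, and its part in the *C5ar1* difference was not tested.

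Of a list of 47 other genes of the pathway, 18 had at least 50 UMIs over Day 3 and Day 7. Of these, 5 were at least 2-fold lower on Day 7, among them *Fcna*, *Cfp*, *Itgam* and *Itgb2*, and 1 was at least 2-fold higher, *Masp1*, a protease of the lectin pathway, with 9.59 CPM on Day 3 and 29.7 on Day 7. Of the 17 that could be compared over Day 3 and Day 14, 9 were at least 2-fold lower and 0 higher. The C1q chains, which hold C1r and C1s, are made mainly by macrophages: *C1qa* measured 567, 400 and 163 CPM, *C1qb* 882, 446 and 187, and *C1qc* 388, 244 and 99.3. Properdin (*Cfp*), which steadies the alternative convertase, measured 241, 66.4 and 32.3 CPM. *Cfd*, the factor D protease of fat that activates factor B, stood at 2430, 2392 and 487 CPM, level between Day 3 and Day 7 where *Cfb* was 2.34-fold lower. The soluble inhibitor *Clu* (clusterin) measured 68.3, 39.4 and 80.0 CPM, the only one of the 17 at least 2-fold higher on Day 14 than on Day 7. The terminal components *C7*, *C8a*, *C8b* and *C9* had no UMI under tissue on any day, which allows up to 1.69 CPM on Day 3 and 0.651 on Day 14 (3 UMIs of the section).

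To ask in which spots each gene was found, spots under tissue with at least 500 UMIs were placed in classes by 3 anchor genes: *Dcn* for fibroblasts, *Lyz2* for macrophages and *Krt14*, a basal keratin, for epidermis. A spot belongs to a class if it is in the upper 25% of the section for that gene's CPM and for neither of the others. The classes held 63 to 116 spots. A member was called led by a class if it had at least 50 UMIs over the 3 classes and its 95% intervals of the ratio to both other classes lay above 1. A spot covers several cells, and the classes are named for their anchor gene only. On Day 3 the Dcn spots had the highest fibroblast list sum (49458 CPM against 22392 in Lyz2 spots), on Day 7 Dcn and Lyz2 spots were close (41574 and 40544), and on Day 14 the Lyz2 spots had more (24354 against 21754). By this sum, Dcn spots on Day 14 therefore do not stand for more fibroblast RNA than Lyz2 spots do, and on Day 7 they held only slightly more. The sum gives most weight to the most abundant genes of the list. *Dcn*, 1 of its 10 genes, was 567 of the 18838 CPM under tissue on Day 14.

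On Day 3, of the 8 members with enough UMIs, 5 were led by Dcn spots (*C3*, *C4b*, *C1ra*, *C1s1* and *Serping1*), against 5.78% of 3060 genes, 2 by Lyz2 spots (*C3ar1* and *C5ar1*), against 11.9%, and 0 by Krt14 spots, against 10.5%. On Day 7, of 9, Dcn spots led 3 (*C3*, *C4b* and *Cfb*), against 1.58%, Lyz2 spots 0, against 4.26%, and Krt14 spots 0, against 6.12%. On Day 14, of 6, Dcn spots led 1 (*C3*), against 2.31%, Lyz2 spots 1 (*Cfb*), against 1.40%, and Krt14 spots 0, against 9.66%. Over the 27 pairs of member and day, 12 thus had a leading class. Where every spot was thinned to 1000 UMIs before the classes were drawn, 1 pair kept a leading class, and where only the pooling used thinned spots, 3 did. Thinning left 54000 to 116000 UMIs in a class in the second case, against 203811 to 1242765 without it.

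**Figure D2:**
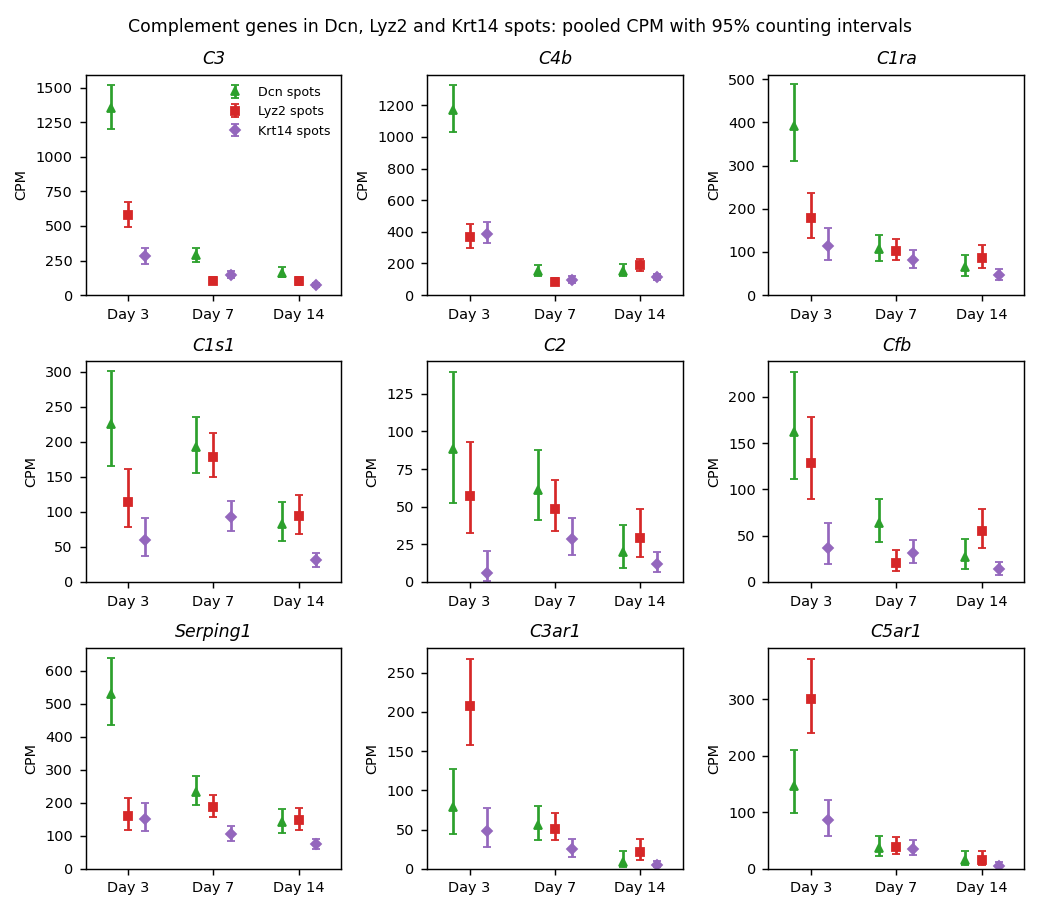
Level of each complement gene (CPM, vertical axes from 0) in Dcn, Lyz2 and Krt14 spots of each section, pooled over the spots of a class, with 95% counting intervals. On Day 3 *C3*, *C4b*, *C1ra*, *C1s1* and *Serping1* are highest in Dcn spots and *C3ar1* and *C5ar1* in Lyz2 spots, and on Day 14 most intervals of Dcn and Lyz2 spots overlap.

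*C3* was the one member that Dcn spots led on all 3 days. It measured 1354 CPM in Dcn spots, 579 in Lyz2 spots and 280 in Krt14 spots on Day 3. On Day 7 it measured 286, 101 and 146 CPM in the same order, and on Day 14 163, 99.3 and 73.2. With the marker lists in place of the anchor genes, the Day 14 lead of *C3* passed to the macrophage-list spots. Of 9 other fibroblast markers with enough UMIs, Dcn spots led 6, 2 and 0 on Day 3, Day 7 and Day 14. Dcn spots also held more of the muscle list than Lyz2 spots, with 40047, 58150 and 88047 CPM against 22342, 37661 and 67756. The part of this mixture in the lead of *C3* was not tested.

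*C4b* in Dcn, Lyz2 and Krt14 spots measured 1173, 368 and 389 CPM on Day 3 and 153, 84.6 and 97.0 on Day 7. On Day 14 its order changed to 154, 187 and 113 CPM, and Dcn and Lyz2 spots did not differ beyond counting error (log2 ratio -0.28, -0.75 to 0.18). *Serping1* measured 530, 161 and 151 CPM on Day 3, where Lyz2 and Krt14 spots did not differ beyond counting error. On Day 7 it measured 233, 189 and 106 CPM and on Day 14 143, 148 and 74.8, with Dcn and Lyz2 spots both above Krt14 spots and not separable from each other.

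*C1s1* followed *Serping1* in this: 226, 114 and 60.0 CPM in Dcn, Lyz2 and Krt14 spots on Day 3, then 192, 179 and 92.3 on Day 7 and 82.4, 93.4 and 30.6 on Day 14. Its Dcn over Lyz2 log2 ratio was 0.98 (0.30 to 1.68), 0.10 (-0.30 to 0.50) and -0.18 (-0.84 to 0.47). *C1ra* measured 393, 179 and 114 CPM on Day 3 but 106, 103 and 81.6 on Day 7, where no pair of classes differed beyond counting error. *C2* was sparse, with 18, 16 and 2 UMIs in the classes on Day 3, which is too few for a call.

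*Cfb* changed class. On Day 3 Dcn and Lyz2 spots had 162 and 129 CPM, with a log2 ratio whose interval holds 0 (0.33, -0.39 to 1.05), and Krt14 spots 37.2. On Day 7 Dcn spots had 63.4 CPM from 31 UMIs and Lyz2 spots 20.8 from 15. On Day 14 Dcn spots had 26.7 CPM from 12 UMIs and Lyz2 spots 54.5 from 28. The Day 14 interval of the Dcn over Lyz2 log2 ratio came close to no difference (-1.03, -2.14 to -0.006). The receptors were led by Lyz2 spots on Day 3: *C3ar1* measured 207 CPM there against 78.5 in Dcn and 48.6 in Krt14 spots, and *C5ar1* 300.1 against 147 and 85.7. On Day 7 *C3ar1* had 51.3 CPM in Lyz2 and 55.2 in Dcn spots, and *C5ar1* 38.8 and 36.8, with no difference beyond counting error. On Day 14 at most 11 UMIs of either receptor fell in any class, and differences were not detectable at this depth.

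Spot by spot, Pearson correlations between the members and the anchor genes were weak, from -0.11 to 0.35 over the 520, 539 and 689 spots of the sections, which share their library and depth. They were taken on the log of 1 plus the UMIs of a gene per 10000 UMIs of the spot. The highest was that of *C4b* with *Dcn* on Day 3. By this measure *Lyz2* was the anchor with the highest correlation in 15 of the 27 pairs, *Dcn* in 11 and *Krt14* in 1. Of the 12 pairs led by a spot class, 11 had their highest correlation with the anchor of that class, and *C1s1* on Day 3 had it with *Lyz2* instead of *Dcn*. Classes and correlations use the same spots and anchor genes, so they are not independent. In spots thinned to 1000 UMIs, *C4b* with *Dcn* on Day 3 fell from 0.35 to 0.21. *C3ar1* with *Lyz2* on Day 3 fell from 0.26 to 0.09, and *C3* with *Dcn* on Day 14 from 0.08 to 0.003.

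The maps show this placement. On Day 3 *C3* was high over much of the section, while *C3ar1* was found in its upper part together with *Lyz2*. On Day 7 the highest *C3* spots lay along the lower border of the section, and on Day 14 in its upper right part.

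**Figure D3:**
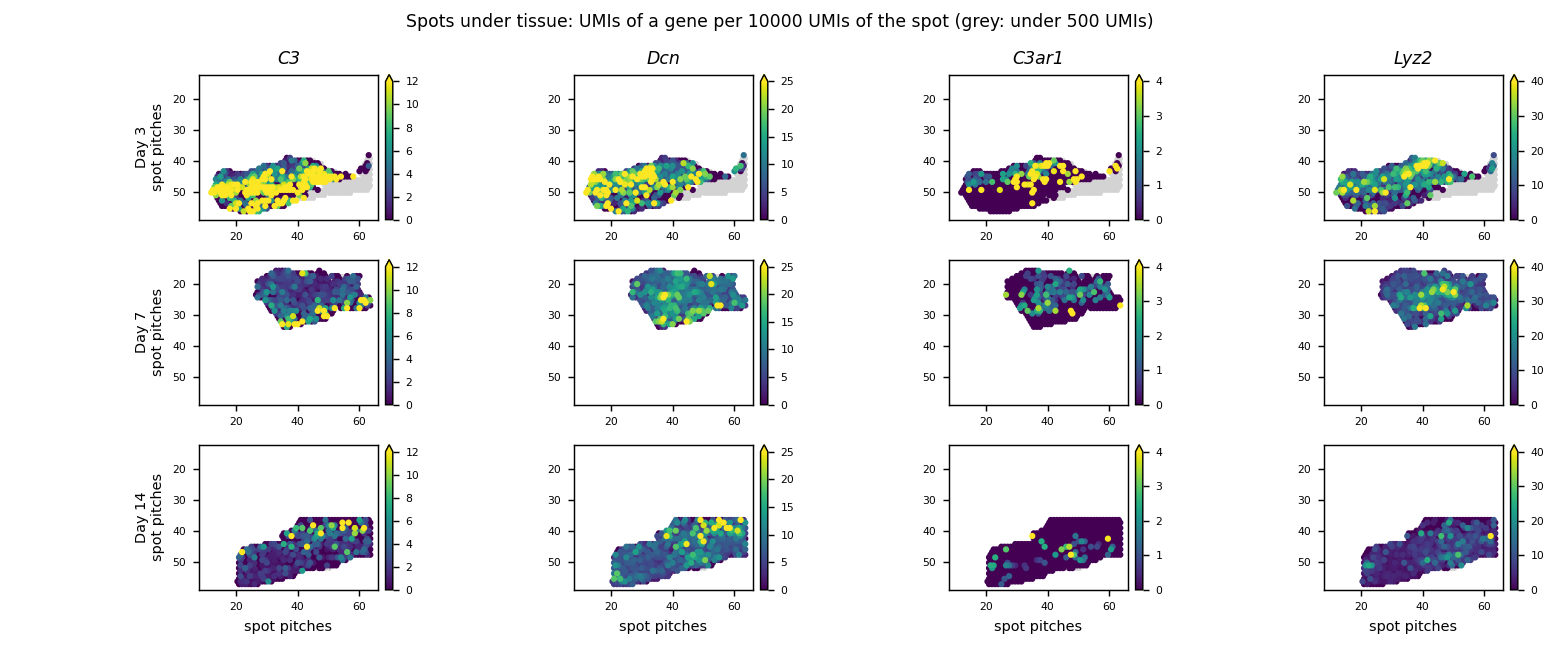
Spots under tissue of the Day 3, Day 7 and Day 14 sections (rows), drawn at their place on the slide in spot pitches (the distance between neighbouring spots), coloured by UMIs of *C3*, *Dcn*, *C3ar1* or *Lyz2* per 10000 UMIs of the spot. Each gene has 1 colour scale over the days, with higher values at its top colour. Grey spots had under 500 UMIs. *C3* is high over much of the Day 3 section and along the lower border on Day 7.

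Because of that border on Day 7, spots were compared by their distance from the edge of the marked tissue, a comparison chosen after the maps were seen. Border spots had an outside spot closer than 1.5 pitches, interior spots had none within 3 pitches. On Day 3 *C3* measured 496 CPM at the border and 714 in the interior. On Day 7 the order was the opposite, 196 CPM at the border and 141 in the interior, a log2 ratio of 0.47 (0.15 to 0.78). *C3* was higher still beyond the marked tissue, at 219 CPM in spots closer than 2.2 pitches and 284 in spots at least 5 pitches away. On Day 14 the values were 97.7 and 91.4 CPM and could not be told apart. The muscle list had the same order as *C3* on Day 7, with 44077 CPM in the interior and 69579 at the border. It had 84365 near the marked tissue and 122016 far from it, and whether these go together was not tested.

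The point estimates of the other members were lower at the border, except for *Serping1* on Day 3. Of the 8 with at least 50 UMIs over both zones on Day 3, 4 were at least 2-fold lower at the border (*C1ra*, *Cfb*, *C3ar1* and *C5ar1*), against 6.05% of genes. On Day 7 it was 1 of 9, *C3ar1* with 19.6 CPM against 55.7, against 3.46% of genes. On Day 14 it was 3 of 7 (*C1s1*, *C2* and *Cfb*), against 7.21%. *C1s1* on that day measured 23.2 CPM at the border and 67.4 in the interior. The epidermis list was higher at the border on each day, with 18474, 9328 and 23411 CPM against 3836, 3587 and 9287 in the interior.

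The members were also counted outside the marked tissue. The median log2 ratio of outside over under was -0.63, -0.62 and -0.38 over the members on Day 3, Day 7 and Day 14 and -0.38, -0.38 and -0.54 over all genes. On Day 3, 3 of the 9 were at least 2-fold lower outside (*C4b*, *C1ra* and *C3ar1*), against 15.9% of genes, on Day 7 it was 1 (*C5ar1*), against 8.91%, and on Day 14 it was 0, against 13.7%. *C3* on Day 3 measured 600.0 CPM outside and 598 under tissue. *C4b* measured 214 CPM outside on Day 3 against 543 under tissue, and 110 against 118 on Day 7. *C3ar1* measured 28.8, 22.9 and 7.42 CPM outside, below its level under tissue on Day 3 and Day 7. *Serping1* was lower outside on Day 3 and Day 7, at 212 and 98.3 CPM, and higher on Day 14, at 129 CPM against 103 under tissue. Spots outside with at least 500 UMIs numbered 674, 2118 and 1780 on the 3 days. The muscle list was 2.12-, 2.16- and 2.06-fold higher outside than under tissue. The paper's appendix describes the selected spots as a region of interest, so spots outside may lie on tissue left unmarked. How much of their RNA came from such tissue and how much had spread was not tested. A level under tissue may hold RNA from elsewhere on the section.

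Whether the differences between days remain within 1 class of spots was asked next. In Dcn spots 5 of the 6 members with at least 50 UMIs over both days were at least 2-fold lower on Day 7 than on Day 3, against 7.96% of genes, and in Lyz2 spots 5 of 9, against 9.73%. From Day 3 to Day 14 it was 5 of 5 in Dcn spots, against 11.0%, and 5 of 8 in Lyz2 spots, against 14.0%. The members left out here had too few UMIs, and those kept passed partly through their Day 3 level. *C3* in Dcn spots was 4.73-fold lower on Day 7 and in Lyz2 spots 5.71-fold lower, against 3.74-fold in the whole section. *Dcn* itself was 1.79-fold lower on Day 7 in Dcn spots, so spots of a class are not alike between days. For *Serping1*, Day 7 set against Day 3 gave a log2 ratio of -1.18 (-1.58 to -0.79) in Dcn spots and 0.23 (-0.26 to 0.75) in Lyz2 spots, intervals that do not meet. *C1s1* in Lyz2 spots was 1.57-fold higher on Day 7 than on Day 3, and in Dcn spots the log2 ratio was -0.23 (-0.75 to 0.31). *C5ar1* in Lyz2 spots was 7.73-fold lower on Day 7, where *Lyz2* itself was 1.94-fold lower in those spots. The Lyz2 spots had 3369 CPM of the neutrophil list on Day 3 and 185 on Day 7. Their macrophage list was 6566 and 2840 CPM, and the part of these shifts in the *C5ar1* difference was not tested. *C4b* in Lyz2 spots was 2.21-fold higher on Day 14 than on Day 7 (84.6 to 187 CPM), while in Dcn spots it measured 153 and 154 CPM.

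**Figure D4:**
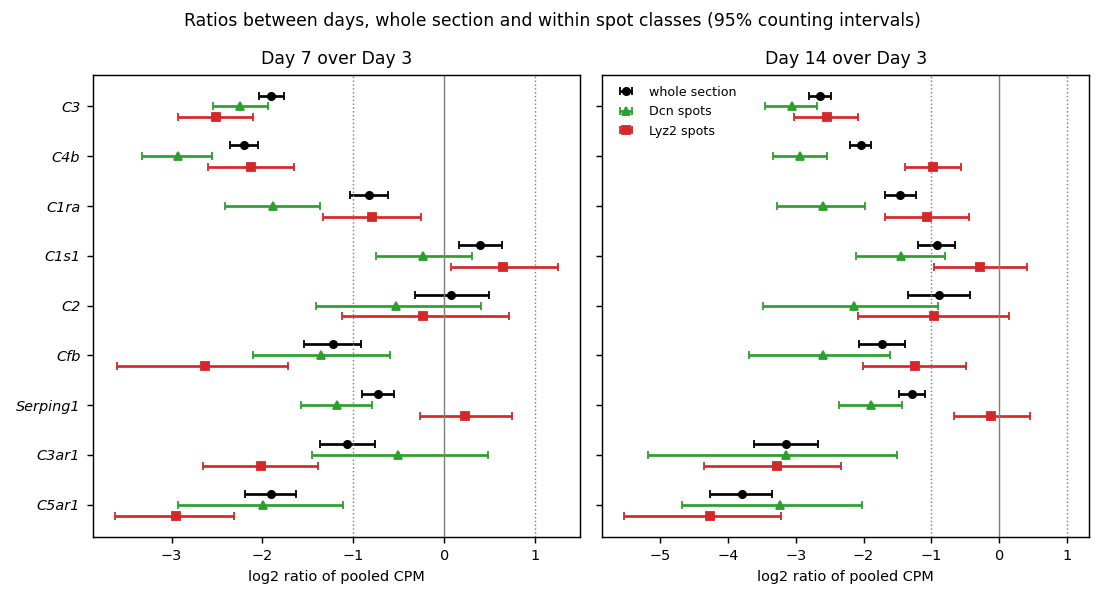
Log2 ratio of CPM, Day 7 over Day 3 and Day 14 over Day 3, for the 9 complement genes in the whole section (circles), Dcn spots (triangles) and Lyz2 spots (squares), with 95% counting intervals, members with few UMIs included. The solid line marks no difference and the dotted lines a 2-fold one. *C3* and *C5ar1* lie left of the lower dotted line in each pool on both panels, while *Serping1* in Lyz2 spots lies near 0.

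Spots were also ranked by the summed CPM of whole marker lists, and the upper 10% of spots for a list compared with the rest of the section. On Day 3 *C4b* measured 1350.5 CPM in the fibroblast-rich spots and 378 elsewhere, *Serping1* 547 and 186, and *C1ra*, *C1s1* and *C2* were higher there as well. *C3ar1* measured 259 CPM in macrophage-rich spots and 69.8 elsewhere, and *Cfb* 187 and 80.3. *C5ar1* was high in macrophage-rich spots, at 284 CPM, and in neutrophil-rich spots, at 412 CPM against 138 elsewhere from 34 UMIs. In the same neutrophil-rich spots *C3ar1* had 48.5 CPM from 4 UMIs, so on Day 3 the receptors differed in this respect.

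On Day 7 *C3ar1* had 87.3 CPM in macrophage-rich spots against 38.1 elsewhere, and *C1s1* had 200.2 against 132. In fibroblast-rich spots of that day *C3ar1* had 60.6 CPM against 41.9 and *C1s1* 192 against 130. On Day 14 the log2 ratios of the members in macrophage-rich spots ranged from 0.59 for *C4b* to 1.78 for *C5ar1*. *Serping1* then had 203 CPM there against 93.3 elsewhere, and *C1s1* 121 against 51.2. In the epidermis-rich spots of the same section *Cfb* had 5.99 CPM against 33.4 elsewhere and *C1s1* 22.8 against 64.6.

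*C3* changed its place between days. In muscle-rich spots it measured 309 CPM on Day 3 against 613 elsewhere, but 396 against 153 on Day 7 and 185 against 91.4 on Day 14. These spots held 24, 51 and 35 UMIs of *C3*. In fibroblast-rich spots it measured 855 CPM against 545 on Day 3 and 115 against 171 on Day 7. Without *Col1a2* and *Col3a1*, an alternative added after the data were seen, *C3* in fibroblast-rich spots measured 2078 CPM on Day 3 against 483 elsewhere, 143 against 163 on Day 7 and 196 against 87.5 on Day 14. With this shorter list *C4b*, *C1s1*, *C2* and *Serping1* were higher beyond counting error in the fibroblast-rich spots on each of the 3 days. *C2* rested on 12, 38 and 19 UMIs there, and its Day 7 interval came close to no difference (log2 ratio 0.56, 0.01 to 1.09).

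**Figure D5:**
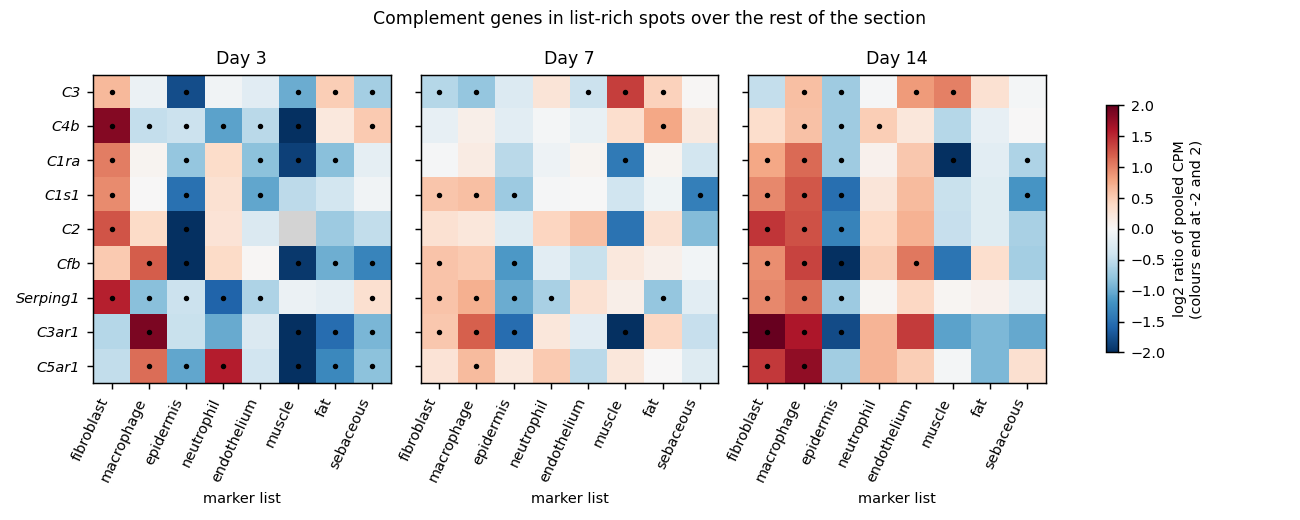
Log2 ratio of CPM in the upper 10% of spots for each of 8 marker lists (columns) over the rest of the section, for the 9 complement genes (rows) on each day. Red is higher and blue lower, colours end at -2 and 2, grey had no UMI, and a dot marks a 95% counting interval that does not hold 0. *C3ar1* and *C5ar1* are high in macrophage-rich spots on each day, and on Day 14 in fibroblast-rich spots as well. *C3* in muscle-rich spots is low on Day 3 and high on Day 7 and Day 14.

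To find genes with a like pattern, log2 CPM was compared over 15 pools, 5 per day: the 3 classes, the spots in the upper 25% for no anchor gene, and the spots outside. Pools of 1 section share their library. Over these pools the members fell into overlapping groups rather than 1 profile. *C3* correlated with *Cfb* at r = 0.87 and with *C5ar1* at 0.87, *C1s1* with *C2* at 0.86, but *C1s1* with *C4b* at 0.34 and *C2* with *C4b* at 0.30. *C3ar1* was near *Lyz2* (r = 0.91) and *Serping1* near *Dcn* (r = 0.83), and no member correlated with *Krt14* above 0.14. The search covered 8916 genes with at least 300 UMIs and passed over pathway and anchor genes. The nearest to *C3* was *Rarres2* (chemerin, r = 0.92), to *C4b* *Serpina3n* (0.94), to *C1ra* *Fcgrt* (0.96) and to *C1s1* *Ift27* (0.93). For *C2* it was *Nid1* (nidogen of basement membrane, 0.92), for *Cfb* *Celf2* (0.90) and for *Serping1* *Htra3* (0.87). The receptors were nearest to myeloid genes, *C3ar1* to *Cyth4* (0.97) and *C5ar1* to the chemokine gene *Ccl6* (0.96).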

How the data were processed

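Frozen wound sections were read on Visium slides, with 1 section each on Day 3, Day 7 and Day 14. Per the study's methods and the submitters' processing notes, the authors converted reads with Space Ranger 1.3.0 (build mm10) to raw UMI counts per gene and spot, and the deposited counts carry no normalization or filter on spots. Read lengths varied between libraries, and which library had which is not given in the sources used here. Positions come from the GRCm38 gene annotation and promoters from RefSeq on GRCm38.p6.

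Groups were the labelled days. UMIs were summed over spots under tissue, as the deposited position lists mark them, and divided by the sum over all genes (CPM). Sums carry exact Poisson intervals and ratios exact conditional binomial ones, at 95%. With 1 section per day no p-value was computed. Ratios were made for all genes with at least 50 UMIs over both pools, and a call is a 2-fold difference. Spot classes used spots with at least 500 UMIs and were not replicates. Likeness used log2(CPM + 5). No doublet step applies to spots. Calculations used Python 3.11.15, numpy 2.4.6, scipy 1.17.1 and pandas 2.3.3, with scaling factors from edgeR 4.0.16 and DESeq2 1.42.0 as alternatives, and were tested on simulated data.

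The 9 members, the 47 pathway genes, the 8 marker lists and the anchor genes were chosen with earlier results of these data known. The text names every member, and of other genes the called pathway genes and the most alike gene of each member. The zones by distance from the tissue border were chosen after the maps were seen. The level of 1 gene on the list of other pathway genes is not reported here; the counts over that list include it.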

Additional observations from a re-analysis of the deposited data

Results flagged for a closer look

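Where a ratio lay above no difference on 1 day and below it on another, with 95% counting intervals on opposite sides, the values of all 3 days are given here. Each day is 1 section, so none of these differences between days was tested. All are log2 ratios of CPM in the order Day 3, Day 7 and Day 14.

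*C3* in muscle-rich spots over the rest of the section stood at -0.99, 1.38 and 1.02. In fibroblast-rich spots it was 0.65, -0.56 and -0.48, in macrophage-rich spots -0.11, -0.78 and 0.61, and in endothelium-rich spots -0.23, -0.42 and 0.84. At the border over the interior of the section *C3* was -0.53, 0.47 and 0.10. *C4b* in macrophage-rich spots was -0.47, 0.12 and 0.59, and in neutrophil-rich spots -1.08, -0.033 and 0.50. *Serping1* in macrophage-rich spots was -0.84, 0.72 and 1.12, and outside over under tissue -0.24, -0.62 and 0.33. *Cfb* outside over under tissue was -0.95, 0.52 and -0.45, and in Dcn over Lyz2 spots 0.33, 1.61 and -1.03. The neutrophil list was 2274 CPM on Day 3 and 204 and 144 on the later days, so neutrophil-rich spots of those days rest on few UMIs.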

How the results depend on the processing

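No paired analysis was possible because each day has 1 section. Leaving out a replicate was not possible for the same reason. Counts of members at least 2-fold lower kept within 1.5 times their value under other scalings (TMM, DESeq2 size factors, mean of spot CPM), depth and UMI minimums and a denominator without mitochondrial, haemoglobin and muscle genes, with these exceptions. From Day 3 to Day 7 the count was 3 instead of 5 when all spots of the slide were pooled. Outside over under tissue on Day 7 it was 2 instead of 1 for outside spots at least 5 pitches away and 0 with that reduced denominator. With DESeq2 size factors 9 of 9 members were at least 2-fold lower on Day 14 than on Day 3, against 7 by total UMIs. *C1s1* remained higher on Day 7 than on Day 3 under each of these settings, with log2 ratios from 0.28 to 0.40.

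Of the pairs of member and day, the 9 led by Dcn spots were 1 when spots were thinned to 1000 UMIs, 3 when the classes were kept and spots thinned (an alternative added after the data were seen) and 4 in spots outside the tissue. The 3 led by Lyz2 spots were 0 under both kinds of thinning. Correlations name a highest anchor for all 27 pairs, with no interval required, so that *Lyz2* was highest in 15 by Pearson and 16 by Spearman and *Krt14* in 1 by each. Among the 12 pairs led by a class, the same anchor was highest in 11 by Pearson and 10 by Spearman. Among the settings that form classes, none gave *C3ar1* or *C5ar1* another leading class, while *C3* passed to Lyz2 spots on Day 14 with marker lists and on Day 7 outside the tissue. Of the other 423 values recomputed for single members, 362 stayed within their counting interval, 61 moved beyond it and none changed the sign of a ratio whose interval excluded no difference. The sparsest values are those of both receptors on Day 14, with 50 UMIs each, and of *C2* on Day 3, with 71.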
